A study of Drosophila melanogaster with 24 samples.

Results

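Gustatory receptor (Gr) genes were followed through antennal development in the fruit fly Drosophila melanogaster. The genes were those whose symbol is Gr, a number and 1 letter, apart from Gr21a, Gr63a and Gr28b, which are set beside them only for scale. Of the 57 annotated genes that this rule takes, 48 are among the 13409 genes of the count table and 29 were detected in at least 1 group. The other 9 (Gr10a, which neighbours Or10a, and Gr22b, Gr22c, Gr22d, Gr22e, Gr22f, Gr23a, Gr58b and Gr68a) were not analysed here.

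Polyadenylated RNA was sequenced from 24 libraries, 2 for each of 12 combinations of stage and genotype. The genotypes were w[1118];;rn[tot]/rn[tot] (here mutant), w[1118];;rn[tot]/TM6 (here heterozygote) and w[1118];;+/+ (here wild type). All of them carry w[1118], and rn (rotund) encodes a zinc-finger transcription factor on chromosome arm 3R. The stages were the imaginal disc of the wandering larva, the antenna at 8 h and at 40 h of pupal life, and that of the adult. The heterozygote carries the balancer chromosome TM6, and the rn allele, TM6 and the rest of each stock's chromosomes cannot be told apart. Likewise, stage and tissue cannot be told apart between the larval disc and the 8 h antenna. The labels do not say whether the 2 libraries of a group came from separate animals, so p-values measure only the spread between these libraries, which may be technical.

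Gustatory receptors are multi-pass membrane proteins that act as ligand-gated cation channels in the dendrites of taste neurons. A neuron usually carries several of them together: sugar neurons share one set, bitter neurons another. The taste organs of the fly are the labellum, the legs and the wing margin, while the antenna is chiefly an olfactory and hearing organ whose best-known Gr proteins are the carbon dioxide receptor, formed by Gr21a and Gr63a, and the warmth receptor of the arista, Gr28b. In RNA from a whole antenna, fewer cells of a type and less RNA per cell cannot be told apart.

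Libraries held 17441575 to 33353768 counts over transcripts and 8060181 to 15123603 counts over genes. In the adult, summed markers of olfactory antenna were 11672 to 12742 CPM in mutants, 12794 to 14484 CPM in heterozygotes and 10441 to 11355 CPM in wild type. CPM is the usual read count scaled to a common depth, after trimmed-mean (TMM) normalization. The 5 listed taste-organ genes (Poxn, ppk23, ppk25, ppk28 and ppk29) summed to 4.45 to 6.92 CPM in adult mutants, 6.87 to 7.06 CPM in heterozygotes and 8.85 to 8.87 CPM in wild type. Of these, ppk23 was at 0 in all 6 adult libraries, and Poxn was at 0 in 5 of them. Markers of the maxillary palp, an olfactory organ beside the mouth, summed to 1.23 to 1.97 CPM in adult mutants, 19.7 to 21.4 CPM in heterozygotes and 20.1 to 23.6 CPM in wild type. Most of that sum in heterozygotes and wild type was Or46a (14.9 and 15.6, 15.8 and 13.3 CPM), which had 0.153 and 0.157 CPM in mutants. Or71a differed, with 0.307 and 0.708 CPM in mutants, 0.208 and 0.252 CPM in heterozygotes and 1.53 and 1.71 CPM in wild type. The part of these markers in the results below was not tested. At 8 h, wild-type library 1 was the shallowest of all 24 and stood apart from its partner, with 102 CPM over the ionotropic receptor (Ir) genes against 42.3 CPM in library 2, so calls in the 8 h comparisons with wild type are also given without it. In the adult, eye markers summed to 2.08 and 99.8 CPM in the heterozygous libraries, and in the mutant libraries fat body markers summed to 104 and 728 CPM and muscle markers to 33.1 and 137 CPM. Without any 1 adult library, 0 members were called in each of the 3 adult comparisons between genotypes.

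A gene is called detected here when both libraries of a group had at least 3 counts. By this measure, 8 Gr genes were detected in the wild-type larval disc, 5 in the wild-type antenna at 8 h, 10 at 40 h and 20 in the adult. In heterozygotes the numbers were 15, 13, 14 and 18, and in mutants 14, 13, 14 and 16, in the same order of stages. Over any genotype, 18 were detected in the larva, 14 at 8 h, 16 at 40 h and 23 in the adult. Gr32a, Gr61a and Gr94a were the members detected in all 12 groups. All 9 receptors of the sugar group (Gr5a, Gr43a, Gr61a and Gr64a to Gr64f) were detected somewhere, as were all 5 receptors shared by most bitter neurons (Gr32a, Gr33a, Gr39a, Gr66a and Gr89a), against 15 of the 34 other members. For comparison, 39 of 55 Or (odorant receptor) genes were detected in adult mutants, 49 in heterozygotes and 46 in wild type, and 29, 30 and 25 of 55 Ir genes in the same order of genotypes.

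The 19 members not detected in any group were Gr10b, Gr22a, Gr36a, Gr36b, Gr36c, Gr39b, Gr47a, Gr57a, Gr58a, Gr58c, Gr59a, Gr59b, Gr59c, Gr59d, Gr59e, Gr92a, Gr93b, Gr93c and Gr93d. Their highest value in any library was 8 counts, or 0.932 CPM, and lower expression would not be detectable at this depth. The members that were detected but stayed under 10 counts in at least 1 library of every group were Gr2a, Gr8a, Gr9a, Gr28a, Gr43a, Gr59f, Gr77a, Gr97a, Gr98a, Gr98b and Gr98c. Their highest values in any library ran from 0.582 to 1.26 CPM. In the wild-type adult antenna this group included Gr98b, which with Gr8a is needed for the response to the plant poison L-canavanine. Gr9a passed in the adult mutant, whereas Gr28a and Gr98a passed in the adult heterozygote. Low counts were mostly even numbers, as when the mates of a read pair are counted separately, so 10 counts can stand for 5 fragments. Gr2a shares 1186 exon bases with futsch on the same strand, and its few counts may include reads of that gene.

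**Figure D1:**
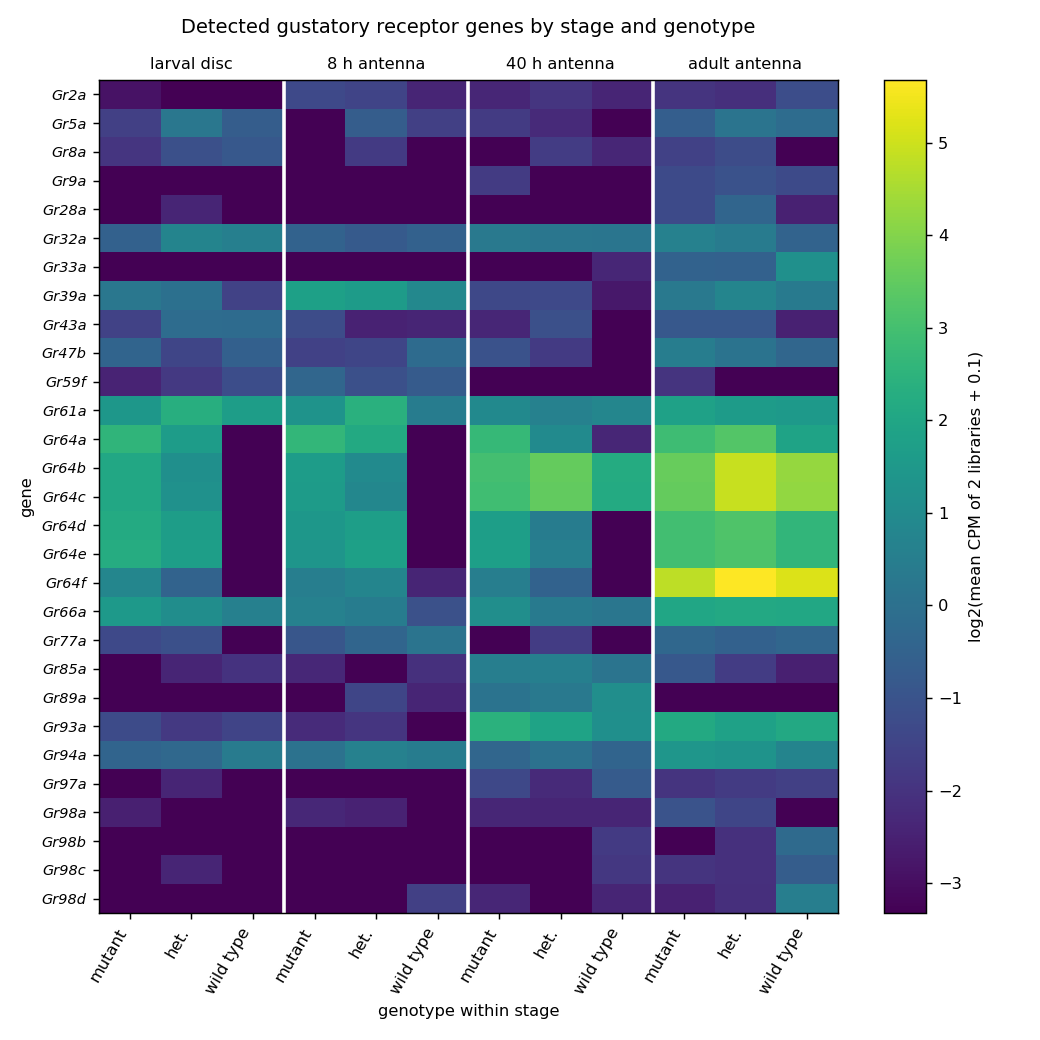
Mean level of each of the 29 detected members (down the page) in the 12 groups (across, by stage and within each stage mutant, heterozygote and wild type), as log2(mean CPM of 2 libraries + 0.1), brighter for higher. Gr64a to Gr64e are at 0 in wild-type larva and 8 h antenna and above 0 in every other genotype at those stages, while Gr64f is highest in the adult.

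Summed over all 48 members, the level was 34.7 ± 3.56 CPM in larval mutants, 28.3 ± 2.38 CPM in heterozygotes and 10.7 ± 0.906 CPM in wild type (SD, n = 2 each). At 8 h it was 30.6 ± 2.10, 31.4 ± 8.27 and 9.28 ± 1.95 CPM in mutants, heterozygotes and wild type. At 40 h it was 45.5 ± 2.32, 41.6 ± 3.34 and 20.3 ± 0.399 CPM in that order, and in the adult 97.6 ± 7.68, 163 ± 10.1 and 113 ± 4.47 CPM. Up to 40 h both mutant and heterozygote libraries lay above both wild-type libraries. Most of that gap sat in the 6 genes Gr64a to Gr64f. Without them the other 42 members summed to 10.1, 14.0 and 10.7 CPM in larval mutants, heterozygotes and wild type, to 12, 15.4 and 9.18 CPM at 8 h, to 15.9, 13.4 and 11.3 CPM at 40 h and to 24.5, 23.9 and 23.4 CPM in the adult. Because transcripts of Gr64b and Gr64c, and of Gr64d and Gr64e, share all their bases, these sums count their reads more than once.

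Gr64a to Gr64f are neighbouring genes of the sugar group on chromosome arm 3L, between 4026769 and 4037575 on the plus strand of BDGP6. Gr64f is the widely shared coreceptor of sugar neurons, Gr64a a receptor for several sugars, and Gr64e a receptor for glycerol. The table assigns each gene the count of its most abundant transcript. For Gr64b and Gr64c these transcripts are the same 2858 bases, at 4028605 to 4032032, and for Gr64d and Gr64e they overlap over 2882 bases, up to 4035703. Of the bases of Gr64d and Gr64e, 598 lie opposite an antisense RNA gene. Values of Gr64c and Gr64e therefore repeat those of Gr64b and Gr64d and are not further evidence. Gr64a lies at 4026769 to 4028600 and Gr64f at 4035799 to 4037575, each apart from the other Gr64 genes.

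In the larval disc, all 6 genes were present in mutants and heterozygotes and had 0 counts in both wild-type libraries. Gr64a was at 6.53 and 5.08 CPM in the mutant libraries, 3.59 and 2.50 CPM in heterozygotes and 0 in both wild-type libraries. Gr64b was at 4.38 and 3.81 CPM in mutants, 2.96 and 1.34 CPM in heterozygotes and 0 in wild type. Gr64c, counted from the same transcript sequence, had 4.23 and 3.89 CPM in mutants, 3.05 and 1.43 CPM in heterozygotes and 0 in wild type. The mutant libraries lay above the heterozygous ones for these genes, and neither overlapped with wild type. Gr64d had 3.11 and 5.67 CPM in mutants, 4.48 and 1.69 CPM in heterozygotes and 0 in wild type. Gr64e had 3.49 and 5.75 CPM in mutants, 4.48 and 1.87 CPM in heterozygotes and 0 in wild type. Gr64f was the lowest, with 1.63 and 1.69 CPM in mutants, 0.359 and 0.892 CPM in heterozygotes and 0 in wild type. Mutant and heterozygous libraries overlapped for Gr64d and Gr64e and not for Gr64f. Against wild type the summed taste-organ markers ran in the other direction, at 7.19 to 7.36 CPM in larval mutants, 3.94 to 6.51 CPM in heterozygotes and 18 to 18.2 CPM in wild type. Mutants lay above heterozygotes in this sum too, and its part was not tested.

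Of the 20 members that passed the low-count filter, 6 passed in larval mutants against wild type, all of them higher, where 0.801% of all 10993 genes tested were higher. These were Gr64a to Gr64f, a single locus. With the wild type at 0, the difference is a bound against 6 counts (3 read pairs) over its 2 libraries, or 0.249 CPM. Gr64a was at least 23.5-fold higher in larval mutants than in wild type (adjusted p = 2.49e-05, edgeR's quasi-likelihood test with Benjamini-Hochberg adjustment). The bounds for Gr64b, Gr64d and Gr64f were at least 16.5-fold, 17.3-fold and 6.66-fold higher (adjusted p = 0.0003, 0.000641 and 0.00237). The same 6 genes passed in heterozygotes against wild type, where 0.946% of all genes were higher. There Gr64a was at least 12.2-fold higher (adjusted p = 0.000138), Gr64b 8.60-fold, Gr64d 12.4-fold and Gr64f 2.51-fold, and the call of Gr64f (adjusted p = 0.0435) was lost without any 1 of the 4 libraries (adjusted p = 0.0552 to 0.322). Mutants and heterozygotes share the wild-type libraries in these comparisons. Between mutants and heterozygotes, edgeR called 0 members and DESeq2 0, with 3 at an unadjusted p under 0.05 and 0.164% of all genes called. The ratio of Gr64a between them was 1.92 (95% counting interval 1.27 to 2.98). Fitted on the 6 larval libraries alone, which leaves few degrees of freedom, the test called 1 member in mutants against wild type and 0 in heterozygotes against wild type.

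At 8 h after pupation the pattern was similar. Gr64a was at 7.11 and 5.13 CPM in mutants, 4.82 and 3.74 CPM in heterozygotes and 0 in both wild-type libraries. Gr64b was at 4.05 and 2.10 CPM in mutants, 2.97 and 0.813 CPM in heterozygotes and 0 in wild type, and Gr64c was close to it, with 3.85 and 2.10, 2.50 and 0.894, and 0 CPM. Gr64d was at 2.67 and 2.56 CPM in mutants, 3.90 and 2.52 CPM in heterozygotes and 0 in wild type, and Gr64e at 2.77 and 2.21, 3.80 and 2.84, and 0 CPM. No mutant or heterozygous library overlapped with wild type. Gr64f, with 0.790 and 1.86 CPM in mutants and 2.23 and 0.975 CPM in heterozygotes, was at 0 and 0.184 CPM in wild type. Against wild type, taste-organ markers again ran the other way, at 3.26 to 5.14 CPM in mutants, 3.90 to 4.88 CPM in heterozygotes and 8.91 to 10.2 CPM in wild type.

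At this stage 6 of 20 members were higher in mutants than in wild type, where 0.973% of all genes were higher, and 7 of 20 in heterozygotes, where 1.25% were. Without wild-type library 1 the numbers were 5 and 5. Gr64a was at least 18.8-fold higher than wild type in mutants (adjusted p = 5.44e-05), and in heterozygotes at least 12.9-fold higher (0.000162). For Gr64b the bounds were 9.57-fold in mutants (0.00154), with 5.52-fold in heterozygotes (0.00606), and for Gr64d 7.95-fold in mutants (0.00367), with 9.60-fold in heterozygotes (0.00253). The ratio of Gr64f was 11.7 in mutants against wild type (1.73 to 499, adjusted p = 0.0377) and 14.2 in heterozygotes against wild type (2.24 to 592, adjusted p = 0.0195), intervals set by 2 counts in the wild type. With wild-type library 1 left out the Gr64f calls ended in mutants (adjusted p = 0.255) and in heterozygotes (0.153), as they did without mutant library 2 (0.253) and without heterozygous library 1 (0.131). Between mutants and heterozygotes edgeR and DESeq2 each called 0 members, with 2 at an unadjusted p under 0.05 and 0.091% of all genes called. Fitted on the 6 libraries of this stage alone, 0 members were called in mutants and 0 in heterozygotes against wild type.

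The seventh call at 8 h was Gr61a, a glucose receptor that lies elsewhere on arm 3L (841451 to 843701). It was at 2.47 and 2.21 CPM in mutants, 5.94 and 4.47 CPM in heterozygotes and 0.683 and 1.84 CPM in wild type. Heterozygotes lay above both other genotypes, and mutants above wild type by a small margin. The log2 difference between heterozygotes and wild type was 1.98 ± 0.51 (adjusted p = 0.0424), and the call ended when wild-type library 1 (adjusted p = 0.361), heterozygous library 1 (0.191) or heterozygous library 2 (0.0809) was left out. Of the 14 members tested outside the Gr64 genes, this was the only call in any of the 12 comparisons between genotypes. Gr66a, a receptor of bitter neurons needed for the response to caffeine, was at 1.19 and 1.75 CPM in mutants, 1.11 and 1.46 CPM in heterozygotes and 0.546 and 0.184 CPM in wild type at 8 h. Its log2 difference of 2.06 ± 0.57 between mutants and wild type did not pass in edgeR (adjusted p = 0.0561) and passed in DESeq2 (adjusted p = 0.0431).

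At 40 h the genes of the locus divided. Gr64b and Gr64c were present in all genotypes, while Gr64a, Gr64d, Gr64e and Gr64f were at or near 0 in wild type only. Gr64a had 6.57 and 6.16 CPM in mutants, 1.52 and 2.23 CPM in heterozygotes and 0.196 and 0 CPM in wild type. Gr64d had 2.22 and 4.23 CPM in mutants, 0.974 and 1.58 CPM in heterozygotes and 0 in wild type, and Gr64e 2.22 and 4.33, 1.19 and 1.58, and 0 CPM. Gr64f had 1.16 and 1.54 CPM in mutants, 0.650 and 0.557 CPM in heterozygotes and 0 in wild type. For each of these, both mutant libraries lay above both heterozygous libraries, which lay above wild type. Some summed markers were ordered the opposite way at 40 h. Olfactory antenna markers summed to 70.8 to 94.9 CPM in mutants, 115.1 to 125 CPM in heterozygotes and 135 to 148 CPM in wild type. Hemocyte markers summed to 30.4 to 30.6, 34.5 to 36.2 and 55.0 to 60.4 CPM in that order. Ir25a held most of the first sum and Pxn most of the second. Other genes of these lists differed: Obp83a was highest in heterozygotes and NimC1 lowest in wild type. Summed Johnston organ (hearing organ) markers overlapped between genotypes, and fat body markers were highest in heterozygotes. The part of all these markers was not tested. Taste-organ markers were 10.9 to 11.6 CPM in mutants, 10.6 to 11.7 CPM in heterozygotes and 14.2 to 17.9 CPM in wild type. Gr64b had 8.69 and 6.92 CPM in mutants, 11.4 and 11.9 CPM in heterozygotes and 4.40 and 4.62 CPM in wild type, and Gr64c followed it with 8.21 and 6.83, 11.2 and 11.7, and 4.40 and 4.53 CPM. Here heterozygotes were highest and wild type lowest, again with no overlap.

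In the 40 h antenna 4 of 20 members were higher in mutants than in wild type (0.7% of all genes higher) and 3 of 20 in heterozygotes (0.628%). Gr64a had a ratio of 68.3 in mutants against wild type (11.8 to 2740, adjusted p = 0.00012) and 20.4 in heterozygotes against wild type (3.24 to 848, adjusted p = 0.00569). Gr64d was at least 11.6-fold higher in mutants (adjusted p = 0.00184), and in heterozygotes at least 4.65-fold higher (0.0208). Gr64f passed in mutants, at least 4.83-fold higher (adjusted p = 0.00785), but not in heterozygotes. Gr64b did not pass in either comparison, with ratios of 1.73 (1.19 to 2.49) in mutants and 2.58 (1.82 to 3.66) in heterozygotes against wild type, whose adjusted p was 0.829 and 0.258. In heterozygotes some calls appeared under other fits: Gr64b in the libraries of this stage alone (adjusted p = 0.0349), Gr64c there (0.0332) and in DESeq2 (0.0147), and Gr64f in DESeq2 (0.0446). Several of these calls changed when a library was left out. That of Gr64f in mutants ended without wild-type library 1 (adjusted p = 0.0828), wild-type library 2 (0.0974) or mutant library 2 (0.0611). In heterozygotes, Gr64d was lost without wild-type library 1 (0.182), wild-type library 2 (0.198) or heterozygous library 2 (0.0808), Gr64e without wild-type library 1 (0.111) or 2 (0.129), and Gr64a without wild-type library 2 (0.0753). Between mutants and heterozygotes edgeR called 0 members, with 3 at an unadjusted p under 0.05 and 0.0819% of all genes called. DESeq2 called 1, Gr64a, whose log2 difference was 1.75 ± 0.43 (adjusted p = 0.35 in edgeR and 0.00339 in DESeq2).

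In the adult antenna all 6 genes were present in every genotype, with the highest mean of the 4 stages. Gr64f, the coreceptor, had 23.2 and 31.0 CPM in mutants, 54.9 and 47.2 CPM in heterozygotes and 37.2 and 36.8 CPM in wild type. Gr64b had 12 and 12 CPM in mutants, 29.9 and 30.6 CPM in heterozygotes and 19.8 and 18.2 CPM in wild type, with Gr64c at 11.3 and 11.8, 30.0 and 30.5, and 19.3 and 17.9 CPM. For these 3 genes mutants were the lowest and heterozygotes the highest, without overlap. The summed palp markers, carried mostly by Or46a, were also lowest in these mutant libraries, though Or71a was not. Their part in the levels was not tested. Gr64a had 6.75 and 7.71 CPM in mutants, 9.44 and 9.84 CPM in heterozygotes and 3.78 and 3.42 CPM in wild type, so here wild type was the lowest. Gr64d had 6.13 and 9.21 CPM in mutants, 10.5 and 7.57 CPM in heterozygotes and 5.96 and 5.82 CPM in wild type, and Gr64e 6.06 and 9.05, 9.65 and 8.13, and 5.96 and 6.06 CPM. The mutant and heterozygous libraries overlapped for this pair.

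No member passed between genotypes in the adult. EdgeR called 0 of 20 in mutants against wild type (3.08% of all genes in either direction), 0 in mutants against heterozygotes (0.291%) and 0 in heterozygotes against wild type (1.82%), with 2, 3 and 2 members at an unadjusted p under 0.05. DESeq2 called 1 member in each: Gr64a in mutants against wild type (adjusted p = 0.0402), Gr64c in mutants against heterozygotes (0.0074) and Gr64a in heterozygotes against wild type (0.000785). The log2 difference of Gr64a in mutants against wild type was 1.0 ± 0.40 (adjusted p = 0.280 in edgeR), and its counting ratio 2.0 (1.40 to 2.90). Gr64b differed by -0.66 ± 0.41 between mutants and wild type (adjusted p = 0.641), and by -1.34 ± 0.41 between mutants and heterozygotes (0.503, with a 95% interval of -2.20 to -0.47). That of Gr64f was -0.45 ± 0.36 against wild type (adjusted p = 0.790). Fitted on the 6 adult libraries alone, the test called 4 members in mutants against wild type, namely Gr64a, Gr64b, Gr64c and Gr98d, with Gr64a higher (adjusted p = 0.0188), Gr64b lower (0.0123) and Gr98d lower (0.0269). In that smaller fit 3 passed in mutants against heterozygotes (Gr64b, Gr64c and Gr64f, all lower) and 4 in heterozygotes against wild type (Gr64a, Gr64b and Gr64c higher, Gr98d lower).

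**Figure D2:**
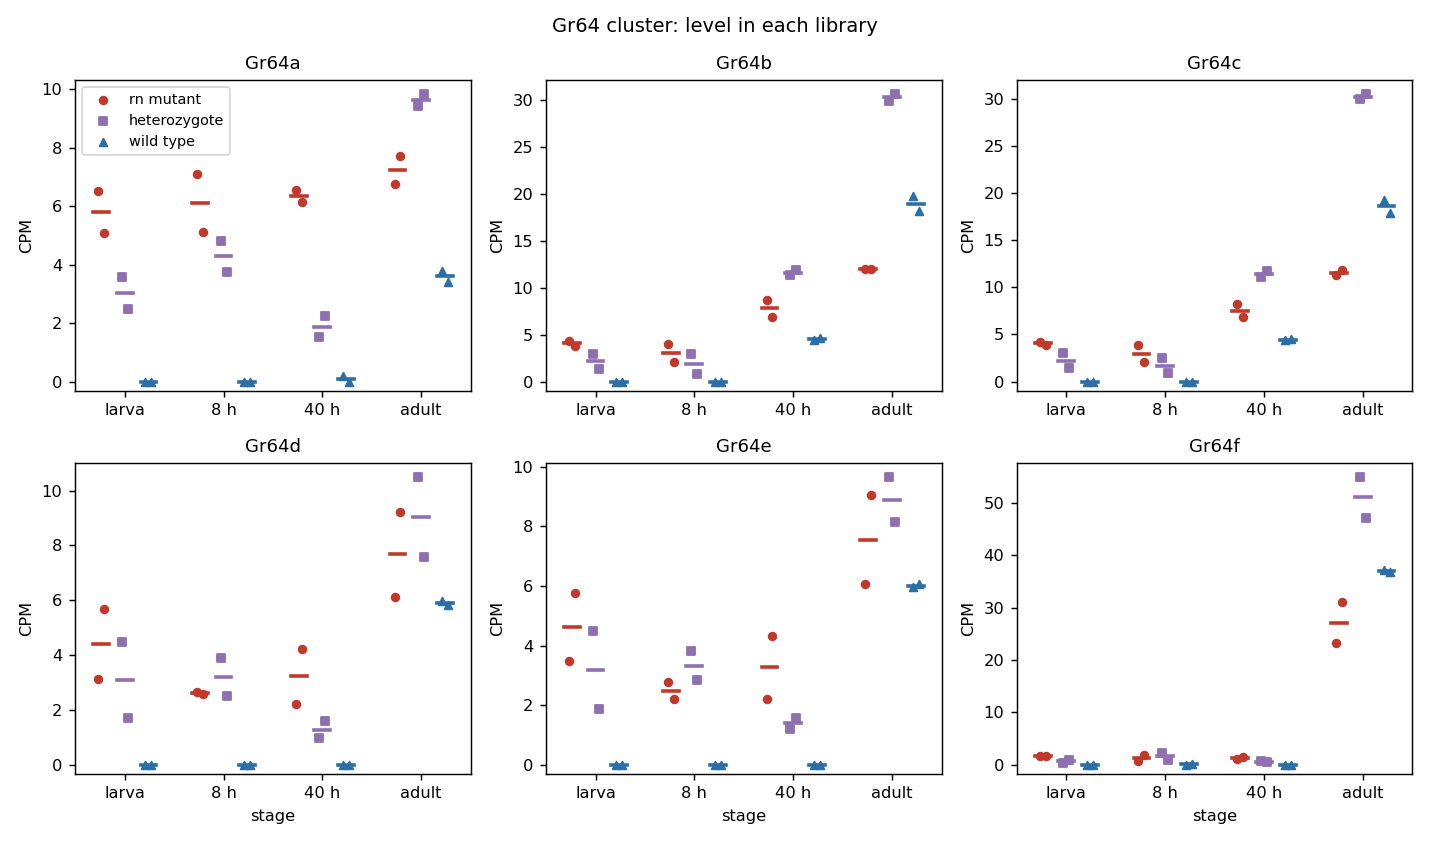
CPM of Gr64a to Gr64f, 1 panel a gene, in each library (points) and as the mean of 2 (bars), for mutant, heterozygote and wild type within each stage from larva to adult. In larva and at 8 h mutant and heterozygous libraries lie above wild type, which is at 0 apart from 1 library of Gr64f at 8 h, and in the adult Gr64b, Gr64c and Gr64f are lowest in mutants.

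The mutant effect, meaning the log2 difference from wild type, was compared between stages. The effect in the adult was lower than that at 40 h for 4 of 20 members (0.264% of all genes lower), Gr64a (adjusted p = 0.00874), Gr64d (0.0171), Gr64e (0.011) and Gr64f (0.0126). For Gr64a the difference was -4.93 ± 0.78, with a ratio to wild type of 2.0 in the adult (1.40 to 2.90) and of 68.3 at 40 h (11.8 to 2740), where the wild type had only 2 counts. The calls of Gr64d, Gr64e and Gr64f were each lost without 40 h wild-type library 1 (adjusted p = 0.0933, 0.0627 and 0.0799), 40 h wild-type library 2 (0.113, 0.0786 and 0.0997) or 40 h mutant library 2 (0.0841, 0.0582 and 0.0813), and that of Gr64d also without adult wild-type library 1 (0.0551), adult wild-type library 2 (0.0585) or adult mutant library 1 (0.0659). Set against the larva and against 8 h, comparisons chosen after seeing the data, the adult effect was lower for 6 of 20 members (0.309% of all genes lower) and for 5 of 20 (0.337%), all of them Gr64 genes. Without larval wild-type library 2, Gr64d (adjusted p = 0.0562) and Gr64f (0.052) were lost from the larval comparison. In the 8 h comparison Gr64d was lost without any 1 of 6 libraries (adjusted p = 0.0653 to 0.0847), and Gr64e without 8 h wild-type library 1 (0.0593), 8 h mutant library 1 (0.0663), adult wild-type library 1 (0.0518) or adult mutant library 1 (0.0567).

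Transcripts next to the Gr64 genes were examined in the same libraries. CG11594, which lies 758 bases before Gr64a on the opposite strand, had 13.6 and 13.1 CPM in larval mutants, 4.57 and 6.24 CPM in heterozygotes and 1.14 and 1.04 CPM in wild type, a log2 difference from wild type of 3.61 in mutants (adjusted p = 3.6e-06), with 2.31 in heterozygotes (0.000693). At 8 h the differences were 3.86 in mutants and 3.26 in heterozygotes (adjusted p = 2.88e-06 and 2.46e-05). CG11594 was therefore called at both stages at which all 6 Gr64 genes were called. With the libraries of each stage fitted alone, 3 of these 4 calls were lost, those in larval heterozygotes (adjusted p = 0.0629), 8 h mutants (0.0676) and 8 h heterozygotes (0.128). At 40 h it did not pass in either genotype (adjusted p = 0.704 and 1), and in adult mutants it fell below wild type, with 12.1 and 10.5 CPM in mutants, 29.9 and 23.9 CPM in heterozygotes and 28.2 and 32.7 CPM in wild type (log2 difference -1.43, adjusted p = 0.00477), a call lost without wild-type library 2 (0.0645) or mutant library 2 (0.0669). Mul1, a mitochondrial ubiquitin ligase gene 3268 bases before Gr64a, CG11593, which overlaps the end of Gr64f on the opposite strand, and Rcd5, 2954 bases beyond, passed in none of these 8 comparisons with wild type (lowest adjusted p 0.354, 0.667 and 0.165). Farther away, 32766 bases before the locus, scrt passed in heterozygotes against wild type, higher in the larva (log2 difference 1.26, adjusted p = 0.0492) and lower at 8 h (-1.08, adjusted p = 0.0399). The larval call was lost without wild-type library 1 (0.0675) or 2 (0.555) or heterozygous library 1 (0.326), and the 8 h call without wild-type library 1 (0.54) or heterozygous library 1 (0.201) or 2 (0.14). A pattern of 0 counts in all 4 wild-type libraries of larva and 8 h and at least 10 counts in each of the 8 mutant and heterozygous libraries was met by 6 genes of the whole table: Gr64a to Gr64e and ppk13, a pickpocket channel gene.

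**Figure D3:**
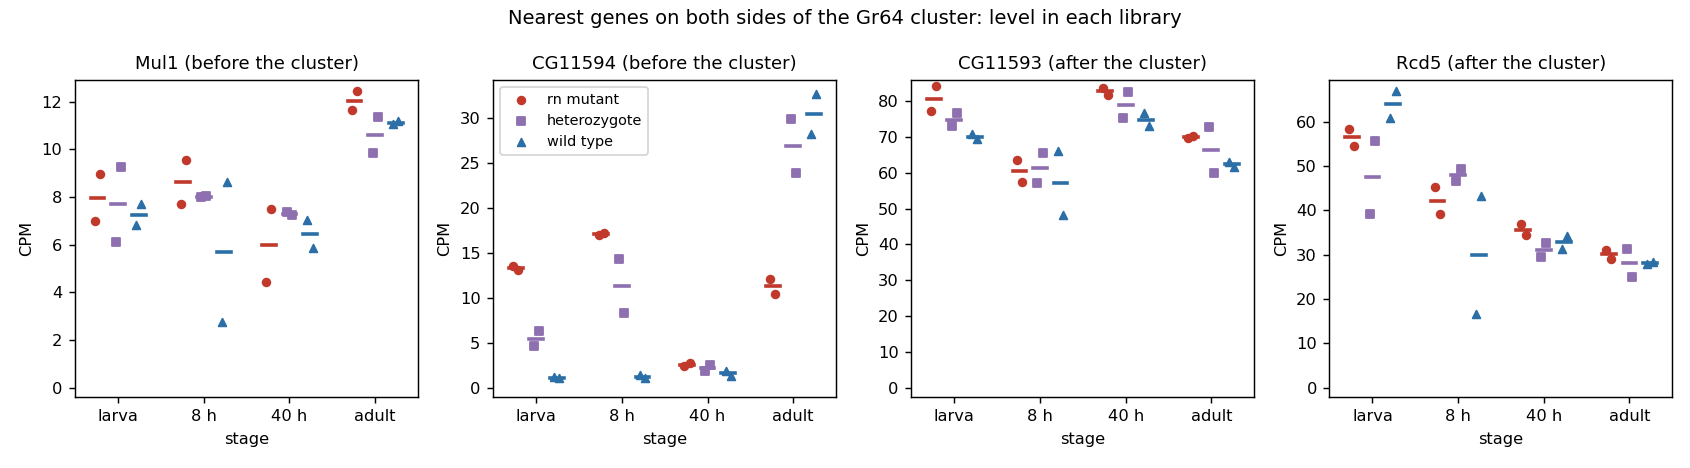
CPM of the 4 genes nearest the Gr64 locus, Mul1, CG11594, CG11593 and Rcd5, in each library (points) and as means of 2 (bars), by stage and genotype. CG11594 is higher in mutants and heterozygotes than in wild type in larva and at 8 h, and in the adult mutants lie below wild type.

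Stage steps were tested with the 3 genotypes averaged. In wild type Gr64a to Gr64e had 0 counts in larva and at 8 h, and Gr64d and Gr64e also at 40 h. An averaged step between 2 stages at 0 has no usable estimate, so these genes could not pass there, yet they stay among the 20. With transcripts summed, the log2 difference of Gr64d from larva to 8 h had a standard error of 360. From larval disc to 8 h antenna 4 of 20 members passed, 2 higher and 2 lower, where 23.8% of all genes were higher and 24.7% lower, 48.4% in all. From 8 h to 40 h it was 9 of 20, 7 higher and 2 lower, beside 34.8% of all genes higher and 34.9% lower, 69.7% in all. From 40 h to the adult 16 of 20 passed, 14 higher and 2 lower, beside 37.8% of all genes higher and 34.5% lower, 72.2% in all. Without 8 h wild-type library 1 the counts were 5 from larva to 8 h and 12 from 8 h to 40 h. Gr5a, Gr33a, Gr47b and Gr98d reached 10 counts in both libraries of a group only in the adult, and Gr85a and Gr89a only at 40 h. Direction in the last step is thus partly set by the low-count filter for such members. The same holds from 8 h to 40 h for Gr85a, Gr89a and Gr93a. Gr93a reached 10 counts only at 40 h and in the adult. Step results of all these members given below carry this limit. Gr64b and Gr64c, and Gr64d and Gr64e, also enter with the same counted sequence. In the last step most of the members that passed were higher, while all genes divided nearly evenly, a contrast that was not tested. The members' median log2 difference for that step was 2.10, against 0.0428 over all genes. Of 47 Or genes 45 were higher, with a median of 6.20, and of 31 Ir genes 22 were higher and 3 lower, with a median of 3.70.

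Among the Gr64 genes the late step differed between genes and, within a gene, between genotypes. Gr64f in the adult was 20 times its 40 h level in mutants (11.8 to 37.0), 84.7 times in heterozygotes (38.8 to 232) and at least 132.6-fold higher in wild type. For Gr64a the ratio was 1.14 in mutants (0.819 to 1.58), 5.08 in heterozygotes (3.14 to 8.68) and 38.7 in wild type (6.63 to 1561), the last set by 2 counts at 40 h. For Gr64d it was 2.37 in mutants (1.57 to 3.57), 6.89 in heterozygotes (3.91 to 13.3) and at least 21.1 in wild type. In each of these the ratio was lowest in mutants and highest in wild type. Gr64b had a step from 8 h to 40 h as well, with ratios of 2.48 in mutants (1.58 to 3.83), 6.40 in heterozygotes (4.02 to 10.8) and at least 13.7 in wild type, and its adult level was 1.54 (1.17 to 2.04), 2.60 (2.11 to 3.21) and 4.21 (3.06 to 5.78) times that at 40 h in the same order. In wild type, Gr64b was 0 up to 8 h, while Gr64a, Gr64d, Gr64e and Gr64f were above 0 in both libraries only in the adult.

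Gr61a was present throughout. In the larva it was at 2.22 and 2.96 CPM in mutants, 3.50 and 6.33 CPM in heterozygotes and 2.84 and 3.33 CPM in wild type. At 40 h it was at 1.74 and 1.92, 0.974 and 1.95, and 2.15 and 1.15 CPM in mutants, heterozygotes and wild type, and in the adult at 4.29 and 2.68, 2.85 and 3.15, and 2.18 and 3.26 CPM. Heterozygotes were the highest in the larva, the genotypes overlapped at 40 h and in the adult, and the adult was above 40 h by a log2 difference of 0.89 ± 0.29 (adjusted p = 0.0111). Gr5a, the trehalose receptor, was at 0.445 and 0 CPM in larval mutants, 0.717 and 1.43 CPM in heterozygotes and 0.757 and 0.296 CPM in wild type. At 8 h it was at 0 in both mutant libraries, 0.557 and 0.488 CPM in heterozygotes and 0.273 and 0.184 CPM in wild type, and at 40 h it was at 0 in all but 2 libraries, mutant library 1 with 0.386 CPM and heterozygous library 1 with 0.217 CPM. Adult levels were 0.460 and 0.630 CPM in mutants, 1.25 and 0.757 CPM in heterozygotes and 1.31 and 0.311 CPM in wild type. The adult level was above 40 h by a log2 difference of 3.62 ± 0.93, and 1108 exon bases of Gr5a lie opposite an antisense RNA gene. Gr43a, a fructose receptor of taste neurons and brain, was detected in the larva of all genotypes, at 8 h in mutants and at 40 h in heterozygotes. In the larva it was at 0.222 and 0.254 CPM in mutants, 0.538 and 1.07 CPM in heterozygotes and 0.663 and 0.889 CPM in wild type. At later stages no library exceeded 0.903 CPM, the value of adult heterozygous library 1. Of the exon bases of Gr43a, 155 lie opposite Dhx15.

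The bitter receptors had separate time courses. Gr66a was found in all 4 stages. In the larva it had 2.15 and 3.38 CPM in mutants, 1.52 and 2.50 CPM in heterozygotes and 1.42 and 1.41 CPM in wild type. It was lower at 8 h (log2 difference -1.19 ± 0.28, adjusted p = 0.00217) and had 1.93 and 2.21, 1.08 and 1.30, and 1.08 and 1.07 CPM in mutants, heterozygotes and wild type at 40 h. Adult levels were 4.29 and 3.62 CPM in mutants, 4.51 and 3.91 CPM in heterozygotes and 4.80 and 3.42 CPM in wild type, above 40 h by 1.56 ± 0.26 in log2. The adult genotypes overlapped. Gr32a, which acts in bitter neurons and in the avoidance of males by courting males, had 0.519 and 0.677 CPM in larval mutants, 1.34 and 1.78 CPM in heterozygotes and 1.70 and 1.04 CPM in wild type. At 8 h it had 0.395 and 0.815, 0.649 and 0.325, and 0.820 and 0.367 CPM in mutants, heterozygotes and wild type, at 40 h 0.869 and 1.44, 1.30 and 0.836, and 1.37 and 0.711 CPM, and in the adult 1.53 and 1.34, 1.60 and 0.883, and 0.727 and 0.543 CPM. It was lower at 8 h than in the larva (log2 difference -0.97 ± 0.37, adjusted p = 0.0412), a call lost without any 1 of 7 libraries (adjusted p = 0.0584 to 0.12). It was higher at 40 h than at 8 h (0.97 ± 0.37, adjusted p = 0.0294), a call lost without any 1 of 6 libraries (adjusted p = 0.0796 to 0.105). The call of Gr66a between the same stages (0.67 ± 0.29, adjusted p = 0.0498) was lost without any 1 of 10 libraries (adjusted p = 0.0519 to 0.201).

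Gr33a and Gr89a each had most of their counts at a single late stage. Gr33a, needed for the response to many bitter compounds and for the restraint of male courtship, was at 0 in every library up to 40 h apart from 0.196 CPM in 1 wild-type library. In the adult it had 0.767 and 0.472 CPM in mutants, 0.694 and 0.504 CPM in heterozygotes and 1.75 and 2.64 CPM in wild type. The wild-type libraries lay above all others, yet the difference did not pass against mutants (log2 difference -1.80 ± 0.82, adjusted p = 0.446) or heterozygotes, whose ratio to wild type was 0.273 (0.114 to 0.593). Gr89a, which is expressed in the bitter neurons of the labellum, was at 0 in all larval and adult libraries. At 8 h it had 0 in both mutant libraries, 0.371 and 0.163 CPM in heterozygotes and 0 and 0.184 CPM in wild type. At 40 h it had 0.966 and 0.962 CPM in mutants, 1.73 and 0.557 CPM in heterozygotes and 2.74 and 1.42 CPM in wild type. That was 10.4 times its level at 8 h (3.77 to 39.8, adjusted p = 0.000695), and in the adult it was at least 19.0-fold lower than at 40 h (adjusted p = 6.31e-05).

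Gr39a, a gene of several splice forms with a part in male courtship, had a stage course that depended on the transcript counted. Its most abundant transcript had the most counts at 8 h, 160 against 111 in the adult, whereas the other 3 had the most in the adult (138, 101 and 99 counts, against 57, 47 and 61 at 8 h). The most abundant one had 3.56 and 3.15 CPM in mutants, 3.43 and 2.52 CPM in heterozygotes and 2.60 and 0.918 CPM in wild type at that stage. In the larva it had 0.964 and 1.18, 1.17 and 0.624, and 0.189 and 0.296 CPM in mutants, heterozygotes and wild type, and at 40 h 0.193 and 0.385, 0.217 and 0.371, and 0.0978 and 0 CPM. For this transcript wild-type libraries were the lowest at each of these 3 stages except that 1 of the 8 h libraries overlapped with the heterozygote. None of these differences passed. In the adult it had 1.99 and 0.315 CPM in mutants, 1.67 and 1.58 CPM in heterozygotes and 1.16 and 1.24 CPM in wild type. Its counts at 8 h were 3.61 times those in the larva (2.26 to 5.70, adjusted p = 0.000838), and those at 40 h were 0.0783 of those at 8 h (0.0329 to 0.182, adjusted p = 4.24e-06). Summed over its 4 transcripts, Gr39a averaged 2.09, 2.62 and 2.76 CPM in adult mutants, heterozygotes and wild type, and 3.13, 2.91 and 1.59 CPM at 8 h. On that scale too it was higher at 8 h than in the larva (log2 difference 1.68 ± 0.37, adjusted p = 0.00121) and lower at 40 h than at 8 h (-3.30 ± 0.41, adjusted p = 2.3e-06).

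Among the other members, Gr93a (3R, 21832503 to 21834013), a receptor needed for the response to caffeine, had the highest level per length at 40 h and in the adult. In the larva it had 0.297 and 0.338 CPM in mutants, 0.179 and 0.178 CPM in heterozygotes and 0.379 and 0.148 CPM in wild type, and at 8 h 0 and 0.233, 0 and 0.325, and 0 and 0 CPM. At 40 h it had 4.64 and 5.96 CPM in mutants, 2.38 and 4.83 CPM in heterozygotes and 1.56 and 2.66 CPM in wild type, with mutants above wild type and no call (adjusted p = 0.697). In the adult it had 3.68 and 4.88 CPM in mutants, 4.17 and 2.77 CPM in heterozygotes and 4.94 and 3.57 CPM in wild type, with overlap of all genotypes. Its counts at 40 h were 37.0 times those at 8 h (12.3 to 182, adjusted p = 3.88e-07). Gr85a peaked at the same stage, with 0.579 and 2.12 CPM in mutants, 1.08 and 1.67 CPM in heterozygotes and 0.391 and 1.60 CPM in wild type at 40 h. Elsewhere Gr85a did not exceed 0.296 CPM except for 0.920 CPM in adult mutant library 1. It was 18.8 times as high at 40 h as at 8 h (4.87 to 161, adjusted p = 0.00212), and its adult counts were 0.193 of those at 40 h (0.0860 to 0.394, adjusted p = 0.0117), a call lost without 40 h wild-type library 2 (adjusted p = 0.0643) or 40 h mutant library 2 (0.0522), and in DESeq2 (0.0548).

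Gr77a moved the other way between 8 h and 40 h. It had 0.395 and 0.466 CPM in mutants, 0.371 and 0.975 CPM in heterozygotes and 1.09 and 0.918 CPM in wild type at 8 h. At 40 h it was at 0 apart from 0.217 and 0.186 CPM in heterozygotes, and in the larva it had 0.593 and 0 CPM in mutants, 0.359 and 0.357 CPM in heterozygotes and 0 in wild type. In the adult it had 0.153 and 1.26, 0.417 and 0.757, and 0.582 and 0.776 CPM in mutants, heterozygotes and wild type. It was higher at 8 h than in the larva (adjusted p = 0.0197), lost without larval wild-type library 2 (adjusted p = 0.057) or 8 h heterozygous library 2 (0.0588), and lower at 40 h than at 8 h (adjusted p = 0.00142).

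Gr94a was detected in every group. In the larva it had 0.445 and 0.846 CPM in mutants, 0.538 and 0.892 CPM in heterozygotes and 1.33 and 1.19 CPM in wild type, at 8 h 1.19 and 0.699, 1.11 and 1.79, and 1.64 and 0.918 CPM, and at 40 h 0.579 and 0.769, 1.08 and 0.743, and 0.391 and 0.888 CPM. In the adult it had 2.91 and 2.20 CPM in mutants, 2.78 and 1.89 CPM in heterozygotes and 2.18 and 0.932 CPM in wild type, above 40 h by 1.51 ± 0.34 in log2. Wild type was the highest in the larva, without overlap and without a call, and the genotypes overlapped at 8 h and 40 h. In the adult both mutant libraries lay above both wild-type libraries, narrowly and without a call, and heterozygotes overlapped with each. Gr47b had 0.445 and 0.846 CPM in larval mutants, 0.359 and 0.178 CPM in heterozygotes and 0.568 and 0.593 CPM in wild type, at 8 h 0 and 0.466, 0.371 and 0.163, and 1.37 and 0.184 CPM, and at 40 h 0.386 and 0.385, 0 and 0.371, and 0 and 0 CPM. In the adult Gr47b had 1.69 and 0.944, 0.555 and 1.39, and 0.727 and 0.621 CPM in mutants, heterozygotes and wild type, above 40 h by 3.33 ± 0.82. Gr98d was nearly confined to the wild-type adult, with 0 and 0.157 CPM in mutants, 0.139 and 0.126 CPM in heterozygotes and 1.45 and 1.24 CPM in wild type. Before that stage no library exceeded 0.273 CPM. The adult ratio to wild type was 0.0575 in mutants (0.00138 to 0.364, adjusted p = 0.139) and 0.0978 in heterozygotes (0.0110 to 0.408, adjusted p = 0.260), so the difference did not pass across all libraries.

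**Figure D4:**
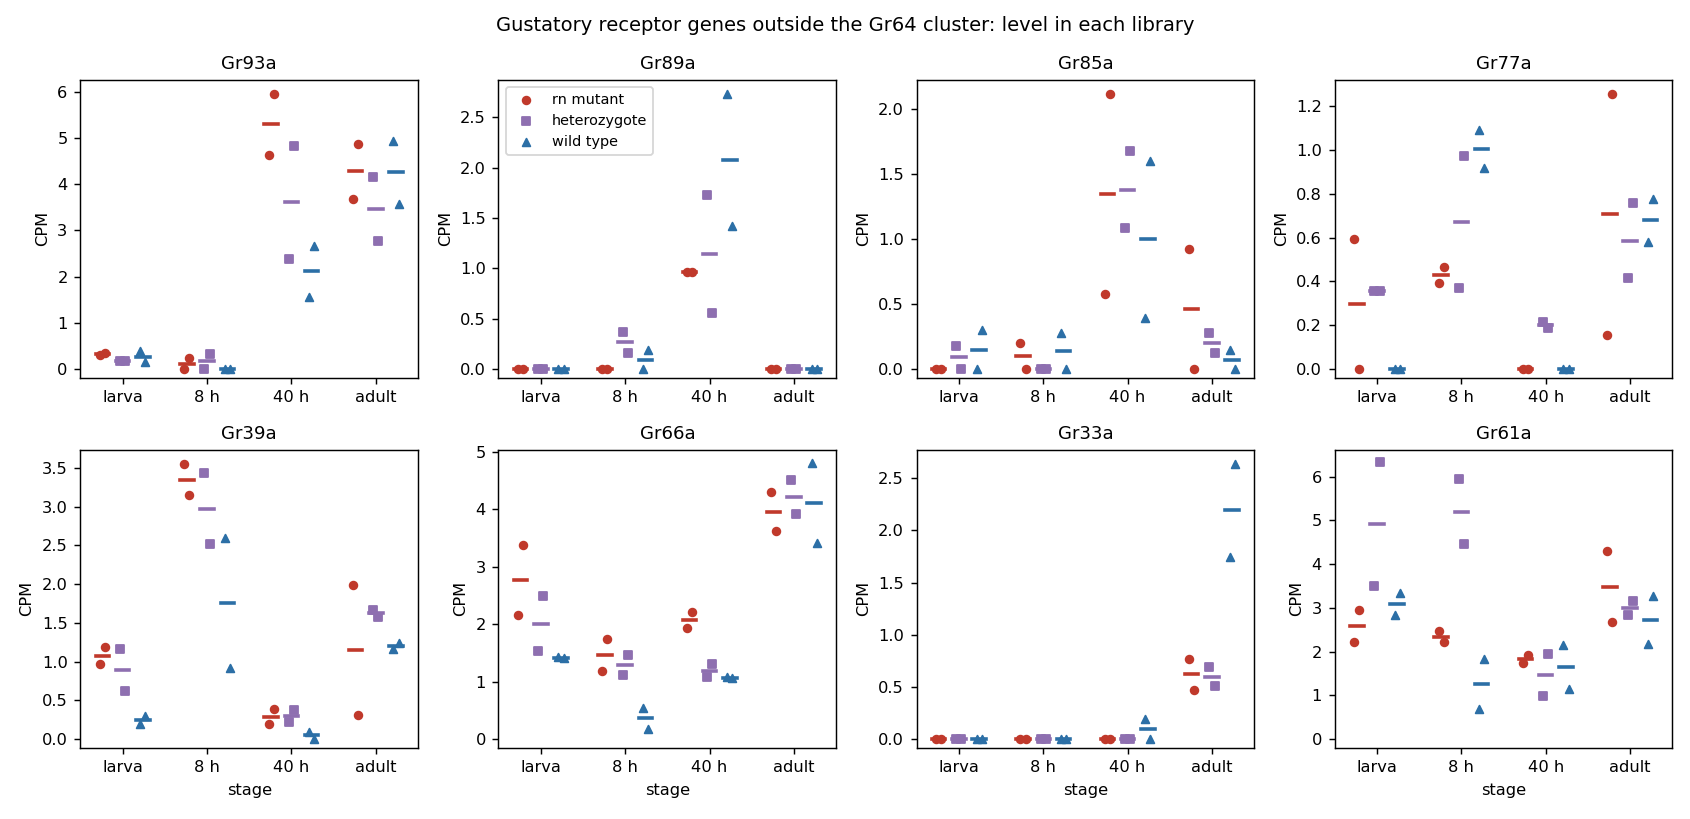
CPM of Gr93a, Gr89a, Gr85a, Gr77a, Gr39a, Gr66a, Gr33a and Gr61a, 1 panel a gene, in each library by stage, with mutant, heterozygote and wild type side by side. Gr93a, Gr89a and Gr85a are higher at 40 h than at 8 h, the most abundant transcript of Gr39a, the one plotted, is highest at 8 h, and Gr33a appears in the adult.

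Levels of different genes were compared in the adult as CPM per kilobase of transcript (CPM per kb). Gr64f was the highest member in all genotypes, at 18.7 ± 3.84 CPM per kb in mutants, 35.3 ± 3.76 in heterozygotes and 25.6 ± 0.211 in wild type (SD, n = 2 each). For scale, Gr21a was at 25.7, 26.7 and 21.4 CPM per kb and Gr63a at 48.6, 44.9 and 54.4 CPM per kb in that order. The mean of Gr64f was above that of Gr21a in heterozygotes and wild type and below it in mutants. Gr64b came next in wild type, at 4.20 ± 0.0202 CPM per kb in mutants, 10.6 ± 0.178 in heterozygotes and 6.64 ± 0.399 in wild type. In wild type Gr93a (2.94 ± 0.670 CPM per kb), Gr66a (2.59 ± 0.618), Gr64a (2.42 ± 0.174) and Gr64d (2.04 ± 0.0344) followed, and Gr93a, Gr66a and Gr64a lay within each other's spread. Gr28b, the warmth receptor, was at 4.20, 3.77 and 2.89 CPM per kb in mutants, heterozygotes and wild type. Below these in wild type were Gr61a (1.46 ± 0.409), Gr33a (1.34 ± 0.387) and Gr94a (1.28 ± 0.727), which also lay within each other's spread.

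**Figure D5:**
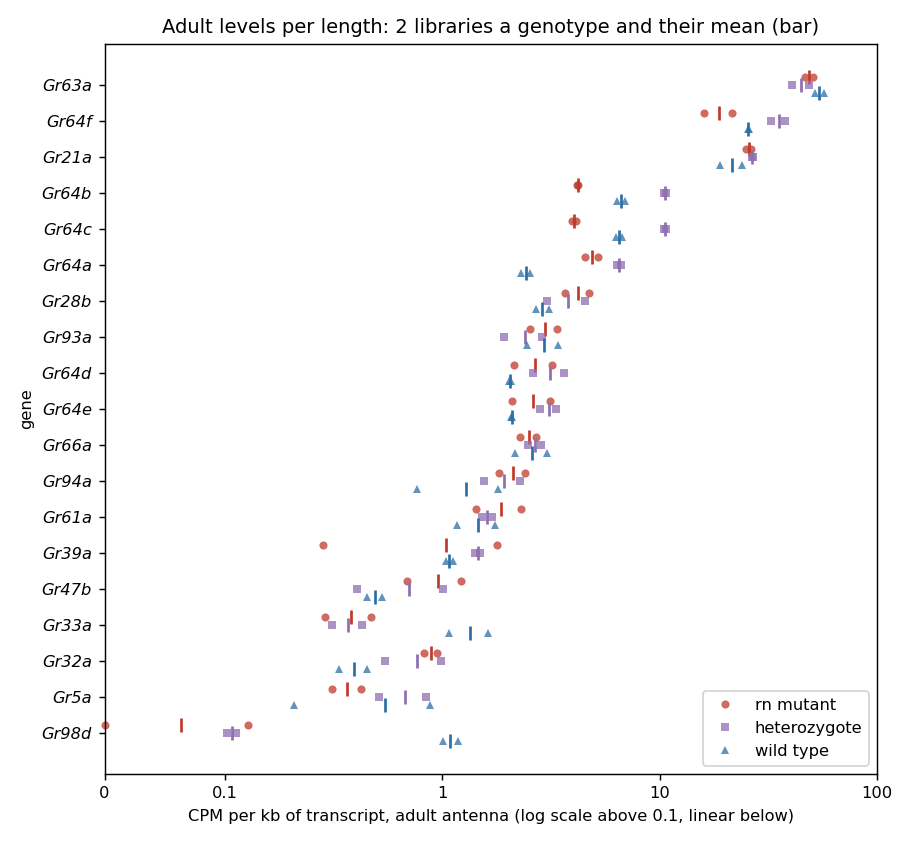
Adult level in CPM per kb of transcript of members named in the text, with Gr21a, Gr63a and Gr28b for scale, on an axis that is logarithmic above 0.1 and linear below. Points are the 2 libraries of mutant, heterozygote and wild type and the bars their means, and Gr64f is the highest member in each genotype.

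Other genes of the taste pathway were taken from a fixed list of 26, of which 19 were tested. In the larva none passed between genotypes. At 8 h 1 fell in mutants against wild type, the odorant-binding protein gene Obp49a, at 0.116 ± 0.165 CPM in mutants and 4.85 ± 0.676 CPM in wild type (log2 difference -5.36 ± 1.24, adjusted p = 0.0269). Leaving out mutant library 1 (adjusted p = 0.217), mutant library 2 (0.109) or wild-type library 1 (0.0589) ended the call. At 8 h 1 was lower in heterozygotes than in wild type, the G protein gene Galphaq, at 71.0 ± 6.84 CPM in heterozygotes and 171 ± 109 CPM in wild type (adjusted p = 0.034). It was lost without wild-type library 1 (0.628), where the log2 difference was -0.41 in place of -1.27, and without heterozygous library 1 (0.199) or 2 (0.113). In the 40 h antenna 1 was lower in mutants, ppk28, a channel subunit of water-sensing neurons, at 1.16 ± 0.276 CPM in mutants and 4.67 ± 2.18 CPM in wild type (adjusted p = 0.0465), lost without wild-type library 2 (0.615), mutant library 1 (0.207) or mutant library 2 (0.526). In the adult 1 was lower in mutants, the coreceptor gene Ir25a, at 175 CPM in mutants and 368 CPM in wild type (log2 difference -1.08 ± 0.28, adjusted p = 0.048), lost without any 1 of the 4 libraries (0.133 to 0.42). None passed between mutants and heterozygotes. The share of all genes lower is not given here for the 8 h and 40 h comparisons. Single calls among 19 genes are therefore not read as a result about the list. In adult mutants against wild type, 3.08% of all genes were called in either direction. Beside 0 calls among Gr members there, 1 Or gene was higher and 13 were lower of 47 tested (29.8% called). Of 31 Ir genes 1 was higher and 5 were lower (19.4% called). The difference between these families was not tested.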

How the data were processed

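Deposited counts per FlyBase transcript, made by the authors, were used for every value. Per the labels' protocols, RNA came from an RNeasy kit and libraries were stranded mRNA for Illumina. Per the submitters' processing notes the tools included CASAVA 1.8, BWA 0.7.12 and DESeq2. For the counting program, its strand setting and the genome build, the sources used here give nothing, so reads of overlapping, antisense or paralogous genes can be included. The authors' normalized table was not used.

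Of 29872 transcripts, 29393 (98.7% of counts) were matched to 13409 genes by the Ensembl annotation of BDGP6, and 479 were left out. Transcripts of a gene can share reads, so each gene was represented by its most counted transcript, keeping 44.9% of counts. Of counts from 1 to 20, 75.6% were even. Intervals of ratios are exact 95% intervals over read pairs and cover counting error only. The interval of the log2 difference of Gr64b is a t interval from the standard error of the fit. After ±, log2 differences carry their standard error and CPM values the SD of 2 libraries.

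The test was that of edgeR 4.0.16, run in R 4.3.3 (TMM, filterByExpr with a minimum of 10 counts, quasi-likelihood F test, 12 groups, 24 libraries, two-sided, Benjamini-Hochberg adjustment at 0.05), which left 10993 genes. The dispersion was 0.0521, a coefficient of variation of 22.8%, with 12 residual degrees of freedom. DESeq2 1.42.0 was an alternative, as were RLE size factors, no filter, sums over transcripts, only the libraries of the stages compared, a replicate block and leaving out each library. The procedure was tested on simulated data. These held differences only in adult mutants and in better-counted genes, with the common dispersion. They therefore do not cover calls against groups at or near 0 counts. Members were named with each library's value where both libraries of a group had at least 10 counts or where a test passed. The members, lists and rules were chosen with earlier results of these data known.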

Additional observations from a re-analysis of the deposited data

Results flagged for a closer look

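The mutant effect (mutant against wild type, log2) differed between the adult and earlier stages in the Gr64 genes, by the interaction term of the same edgeR fit. Against 40 h, the adult effect was lower for Gr64a (adjusted p = 0.00874), Gr64d (0.0171), Gr64e (0.011) and Gr64f (0.0126). Against the larva it was lower for Gr64a (0.00135), Gr64b (0.0012), Gr64c (0.000517), Gr64d (0.00834), Gr64e (0.00405) and Gr64f (0.00598). Against 8 h it was lower for Gr64a (0.00227), Gr64b (0.00355), Gr64c (0.00151), Gr64d (0.0247) and Gr64e (0.018), which is 5 of 20 members where 0.337% of all genes were lower. There Gr64d was lost without any 1 of 6 libraries and Gr64e without any 1 of 4 (adjusted p = 0.0518 to 0.0847). The comparisons with the larva and with 8 h were chosen after seeing the data, and all of them share the adult libraries. Gr64b and Gr64c, and Gr64d and Gr64e, share their counted sequence, so these results come from 1 locus.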

How the results depend on the processing

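Of 76 calls of single members, 1116 alternatives gave 981 on the same side of the threshold, 135 weaker and 0 reversed. Fitted on only the libraries of the stages compared, the calls were 1 in larval mutants and 0 in larval heterozygotes against wild type, 0 and 0 at 8 h, and in the adult 4 in mutants against wild type, 3 in mutants against heterozygotes and 4 in heterozygotes against wild type. DESeq2 called 1 at 40 h in mutants against heterozygotes and 5 in heterozygotes against wild type, and 1 in each adult comparison. Counts halved to read pairs, an alternative added after seeing the data, gave 1 call in adult heterozygotes against wild type and 5 from 8 h to 40 h. Libraries of 1 number did not deviate together (correlations from -0.139 to 0.0888), so the main fit did not pair them. These correlations cannot show whether such libraries were prepared together. With the replicate block the calls were 1 at 40 h in heterozygotes against wild type, 2 from larva to 8 h, and 1 and 3 for the adult effect against 40 h and 8 h, and other counts stayed within 1.5 times. For single genes the block ended, among others, Gr85a from 40 h to the adult (log2 difference -0.87, adjusted p = 0.473) and the adult effect against 8 h of Gr64d (0.0768) and Gr64e (0.0589). A crossed block at 8 h, also added later, called 0 in mutants against heterozygotes. Leaving out 1 library at a time gave 0 to 3 calls in 40 h heterozygotes against wild type, and 1 to 4 and 3 to 6 for the adult effect against 40 h and 8 h.

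At a minimum of 10 counts, 9, 8 and 4 members were detected in larval mutants, heterozygotes and wild type, at 8 h 8 in mutants and 2 in wild type, then 7 in heterozygotes and 6 in wild type at 40 h, and 13 in wild-type adults. At a minimum of 1 count they were 11 in wild type at 8 h, 25 in adult mutants and 28 in adult heterozygotes. The summed level with transcripts added together was 22.1, 19.8 and 8.24 CPM in larval mutants, heterozygotes and wild type, 20.8 in mutants and 6.16 in wild type at 8 h, 25.6, 23.0 and 12.3 at 40 h, and 55.6, 91.3 and 63.9 in the adult. Without Gr64c and Gr64e it was 26 and 22.9 in larval mutants and heterozygotes, 25.1 in 8 h mutants, 34.7, 28.7 and 15.9 at 40 h, and 78.5, 124 and 88.9 in the adult. With RLE scaling it was 20.9 in wild type at 40 h and 110, 183 and 127 in the adult. The cause of these changes was not tested. Depth limits the rest: 28 of 48 members had too few counts to be tested.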
